A study of Malus domestica with 16 samples.

Results

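Whether ozone in the storage room alters what 1-methylcyclopropene (1-MCP) does to the apple peel transcriptome was examined as an interaction, the 1-MCP response in ozone minus the 1-MCP response in air. The response in ozone is the log2 ratio of 1-MCP+O3 over O3, the response in air is the log2 ratio of 1-MCP over Control, and their difference was taken within each replicate letter (A or B). Positive differences mean a higher ratio in ozone. The genes described were those whose sense probe was well above background in Cy3 or Cy5 on all 4 arrays, 34876 of the 59208 genes with a sense probe. Of these, 34870 had a difference in both replicates, 6 having lost a value to an outlier spot.

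All fruit were 'Granny Smith' apples, wild type, harvested at physiological maturity and held for 6 months at 0 °C and 95% relative humidity, and RNA came from peel sampled after that storage. 1-MCP+O3 fruit were exposed to 1-MCP for 24 h before storage and then stored in 0.3 μL/L ozone, O3 fruit were stored in the same ozone without 1-MCP, 1-MCP fruit received 1-MCP and no ozone, and Control fruit received neither. The labels give the 1-MCP concentration as 1000 ppm, and the methods give a far lower one. Each group had 2 RNA samples, A and B, each of peel from 7 fruits, and with 2 samples a group the p-values measure only the spread between these samples. The 2 comparisons share no RNA sample. In both, the 1-MCP-treated group was labelled with Cy3 in A and Cy5 in B, so that a dye bias of a probe enters both ratios of a letter alike. The 1-MCP+O3 and O3 arrays lay on 1 slide and the 1-MCP and Control arrays on the other, so slide and storage atmosphere cannot be told apart in the main comparison.

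1-MCP occupies ethylene receptors and holds back the ethylene responses that drive climacteric ripening, among them chlorophyll loss, softening and the formation of the peel volatile farnesene. Ozone is a strong oxidant that enters plant tissue and is met there by antioxidant and stress responses. Green peel keeps chloroplasts whose photosystems hold light-harvesting chlorophyll a/b proteins, and its outer face is sealed by cutin and by waxes made from very-long-chain fatty acids.

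At an unadjusted p under 0.01 in limma, the difference was called for 876 of the 34870 genes (2.51%), 441 of them higher in ozone (1.26%) and 435 lower (1.25%). Over all 133679 probes tested on the array the share called was 1.07%, and no gene passed at an adjusted p under 0.05: the Benjamini-Hochberg value of every called gene was 0.916. At an unadjusted p under 0.05 the count was 3877. With only the described genes in the fit 308 were called at 0.01 (0.883%), and with an unmoderated test also 308 (0.883%). These shares lie below the 1% that the threshold passes where no gene differs, so the 2.51% is not an excess that holds across fits. In a fit without the replicate letter as a block 241 genes were called, and in that fit with 1 array left out between 90 (without 1-MCP over Control replicate A) and 479 (without 1-MCP+O3 over O3 replicate B). The calls below are therefore candidates at an uncorrected threshold. With the genes split by mean signal into 4 groups of like size, 0.746% of the dimmest group were called and between 3.07% and 3.14% of each other group.

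The response itself was alike in ozone and in air. Across genes the log2 ratios in ozone and in air correlated with r = 0.787 in replicate A and r = 0.807 in replicate B, values that share the dye orientation of the letter, and the means of both replicates correlated with r = 0.860. The 2 arrays of 1-MCP+O3 over O3 correlated with r = 0.188 and those of 1-MCP over Control with r = 0.478. The interaction difference, by contrast, did not repeat across the transcriptome. Differences A and B correlated with r = -0.088 across the genes, 48.0% of the genes had the same sign in both, and the SD of the mean of A and B (0.343) was below the SD of their gap divided by 2 (0.375). Genes are not independent replicates, and these correlations are given as a description.

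**Figure D1:**
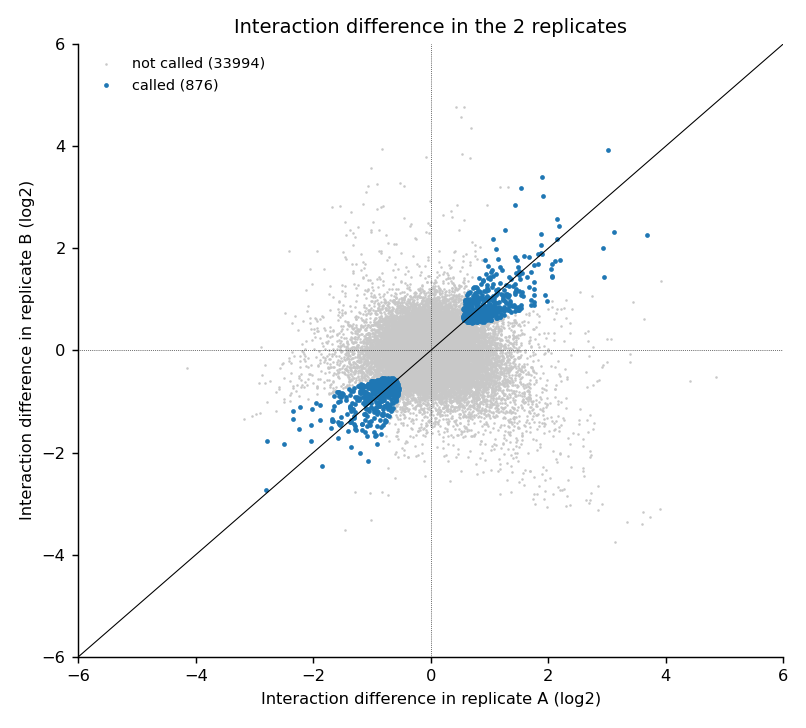
Interaction difference (log2 ratio of 1-MCP+O3 over O3 minus log2 ratio of 1-MCP over Control) of 34870 genes in replicate A (horizontal axis) and replicate B (vertical axis), 1 point per gene; blue points are the 876 genes called at an unadjusted p under 0.01. The cloud is round around 0, with 48.0% of genes in the quadrants of equal sign, and the called genes lie near the diagonal because the test requires agreement of A and B.

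Called genes were sorted by size, a log2 ratio of at least 1 counting as a response. The 1-MCP response was weakened in ozone for 365 genes, strengthened for 141 and reversed for 1, and 369 called genes reached a log2 ratio of 1 in neither atmosphere. Of the weakened genes, 213 were lowered by 1-MCP in air, with a median log2 ratio of -1.03 in ozone and -2.15 in air. The other 152 were raised in air, with medians of 0.974 in ozone and 1.85 in air. Among the 141 strengthened genes 99 were lowered in ozone, with medians of -1.52 in ozone and -0.488 in air, and 42 were raised there, with medians of 1.76 and 0.698. For 66 of the 141 the ratio in air was under 0.5 in size, so that the response was seen mainly in ozone. Since a class is set by the same ratios as the difference, these medians are a description. The same sizes over all 34870 genes, called or not, gave 2223 weakened, 1611 strengthened and 1 reversed. The weakened class was thus the larger one without a call too. Mean ratios spread wider in air (SD 0.667, 3050 genes at 1 or more in size) than in ozone (SD 0.619, 2827 genes). These class sizes follow from the same ratios and are no separate evidence of weakening.

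**Figure D2:**
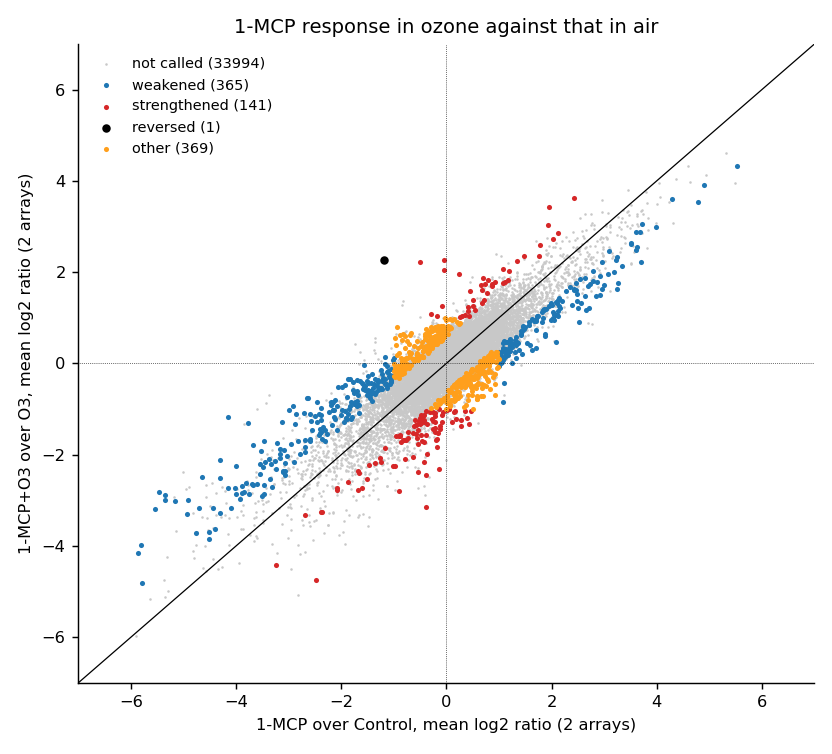
Mean log2 ratio of 1-MCP+O3 over O3 (vertical axis) against mean log2 ratio of 1-MCP over Control (horizontal axis), 2 arrays each, 1 point per gene, coloured by class; grey points were not called and the line marks equal responses. Weakened genes (365) lie on the side of the line nearer to the horizontal axis at both ends, 6 of them past that axis, and the 99 genes strengthened downward lie below the line near the vertical axis.

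The strongest weakening was among genes that 1-MCP lowered in air and that carry no function name in the sources. MDP0000835211 had log2 ratios of -0.34 and -2.02 in ozone, against -4.03 and -4.28 in air. Its difference of 2.97 ± 0.39 (limma SE, unadjusted p = 0.00254 in limma) was the largest of the class, and its ratio in ozone varied widely between replicates. The normalised log2 signal of this probe was 7.67 and 7.30 in 1-MCP+O3 peel and 8.01 and 9.32 in O3 peel, and 6.67 and 6.83 in 1-MCP peel and 10.70 and 11.12 in Control peel. Both untreated groups thus lay above their 1-MCP partners, and O3 peel lay below Control peel.

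MDP0000246999 and MDP0000287459 kept a large response in both atmospheres. MDP0000246999 averaged -2.82 ± 0.89 in ozone and -5.47 ± 0.18 in air (SD, n = 2 arrays each), a 7.07-fold lowering in ozone against a 44.3-fold lowering in air. MDP0000287459 averaged -2.89 ± 0.65 in ozone and -5.36 ± 0.13 in air. For both genes the O3 over Control ratio was positive on both arrays, at 1.87 and 1.99 for MDP0000246999 and 1.22 and 2.22 for MDP0000287459. The remaining 3 of the 6 largest, MDP0000938388, MDP0000318256 and MDP0000214562, had differences of 2.46, 2.36 and 2.36. MDP0000214562 was the steadiest of them, with -3.26 and -3.12 in ozone and -5.41 and -5.69 in air.

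A smaller fall after 1-MCP in ozone was called for an ethylene receptor gene and for a beta-galactosidase gene. The ethylene receptor gene ERS1 (MDP0000242413) had a normalised log2 signal of 7.30 and 7.39 in 1-MCP+O3 peel and 8.98 and 9.49 in O3 peel. It had 7.00 and 7.22 in 1-MCP peel and 9.999 and 10.40 in Control peel. The 1-MCP-treated groups were alike and the O3 samples lay below the Control samples. Its log2 ratio averaged -1.89 ± 0.30 in ozone and -3.09 ± 0.13 in air (SD, n = 2 each), 3.71-fold and 8.53-fold lower, with a difference of 1.20 ± 0.13 (SE).

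MdBGal1 (MDP0000416548) encodes a beta-galactosidase, an enzyme that removes galactose from wall polysaccharides during softening. Its log2 ratios were -2.46 and -2.91 in ozone, against -3.76 and -4.03 in air, with no overlap, and the difference was 1.21 ± 0.13 (SE). On levels that compare channels across slides, MdBGal1 had 8.46 and 8.74 in 1-MCP+O3 peel and 8.18 and 8.32 in 1-MCP peel. It had 10.92 and 11.65 in O3 peel and 11.94 and 12.35 in Control peel. On the arrays against Control, its log2 ratios were -2.78 and -3.13 for 1-MCP+O3 and -3.76 and -4.03 for 1-MCP. There the O3 replicates disagreed, at 0.60 and -1.71. On the levels the wider gap lay between O3 and Control, and on these arrays the 1-MCP-treated groups also lay apart. None of the other 6 genes chosen for RT-qPCR was called in limma, and 2 of them had an unadjusted p under 0.05. Of all genes 2.51% were called and 11.1% had an unadjusted p under 0.05. MdFQR1 (MDP0000393227), for a quinone reductase, averaged -2.19 ± 0.48 in ozone and -3.54 ± 0.36 in air (unadjusted p = 0.0198 in limma). MdEXLA (MDP0000568045), for an expansin-like protein, averaged 0.10 ± 0.59 in ozone and 1.33 ± 0.12 in air (unadjusted p = 0.0168 in limma). MdAFS1 (MDP0000199152), for the farnesene synthase of the peel, had -3.72 and -1.59 in ozone and -4.30 and -0.999 in air, so the ratios of the 2 atmospheres overlapped within a wide replicate spread. The spots of this gene were saturated in 2 of the 8 channels.

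Among the 32 transcription factor genes that the study had tied to these treatments, 8 were called higher in ozone and 3 lower, against 1.26% and 1.25% of all genes. The study chose them on these samples, so the count is not independent evidence. YABBY (MDP0000261432), of a family known for organ polarity in Arabidopsis, moved most: its log2 ratios were -0.96 and -1.26 in ozone, against -3.02 and -2.69 in air, a difference of 1.75 ± 0.20 (SE). An LBD factor (MDP0000155138) had -0.97 and -0.62 in ozone and -2.54 and -1.68 in air. An ethylene response factor (ERF, MDP0000127134), of the family that acts at the end of ethylene signalling, had -1.19 and -2.20 in ozone and -1.98 and -3.20 in air. In each replicate its ratio was nearer to 0 in ozone, by 0.79 and 1.00, although the ranges of the 2 atmospheres overlapped. MIF1 (MDP0000253357), a mini zinc finger gene, averaged -0.41 ± 0.14 in ozone and -1.30 ± 0.02 in air.

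MYB42 (MDP0000602739) averaged -1.35 ± 0.47 in ozone and -2.17 ± 0.17 in air. Its probe was not well above background in 1-MCP peel on either array, where it was at least 4.50-fold lower than in Control, with an adjusted p of 0.916 for the difference in limma. That bound sets the higher of the lowest signal well above background and the probe's own signal, array by array, against the mean of the bright group, on levels made comparable between channels. A second MYB42 gene of the 32 regulators (MDP0000787808), well above background in all 8 channels, was not called (unadjusted p = 0.0615 in limma). It had -1.90 and -3.09 in ozone and -3.30 and -3.39 in air. KNAT1 (MDP0000280307), a homeobox gene of meristem identity in Arabidopsis, was raised in air (1.07 and 1.34) and averaged 0.28 ± 0.11 in ozone. A homeobox gene (MDP0000304650), listed as HD-ZIP in one source and WOX in another, had 0.00 and -0.46 in ozone and -0.59 and -1.09 in air. MYB6 (MDP0000159011) had -0.28 and -0.02 in ozone and 0.41 and 0.76 in air.

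The remaining 3 called regulators were strengthened. ARF9 (MDP0000194603), an auxin response factor, had log2 ratios of 1.13 and 1.36 in ozone, against 0.39 and 0.41 in air. TCP20 (MDP0000374900), of a family of growth regulators, had 0.89 and 1.21 in ozone and 0.27 and 0.33 in air. A bZIP factor (MDP0000239026) was lowered only on the ozone side, with -1.53 and -1.05 in ozone and 0.06 and -0.24 in air, a difference of -1.20 ± 0.24 (SE). For this gene the O3 over Control ratio was 1.87 and 1.08.

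**Figure D3:**
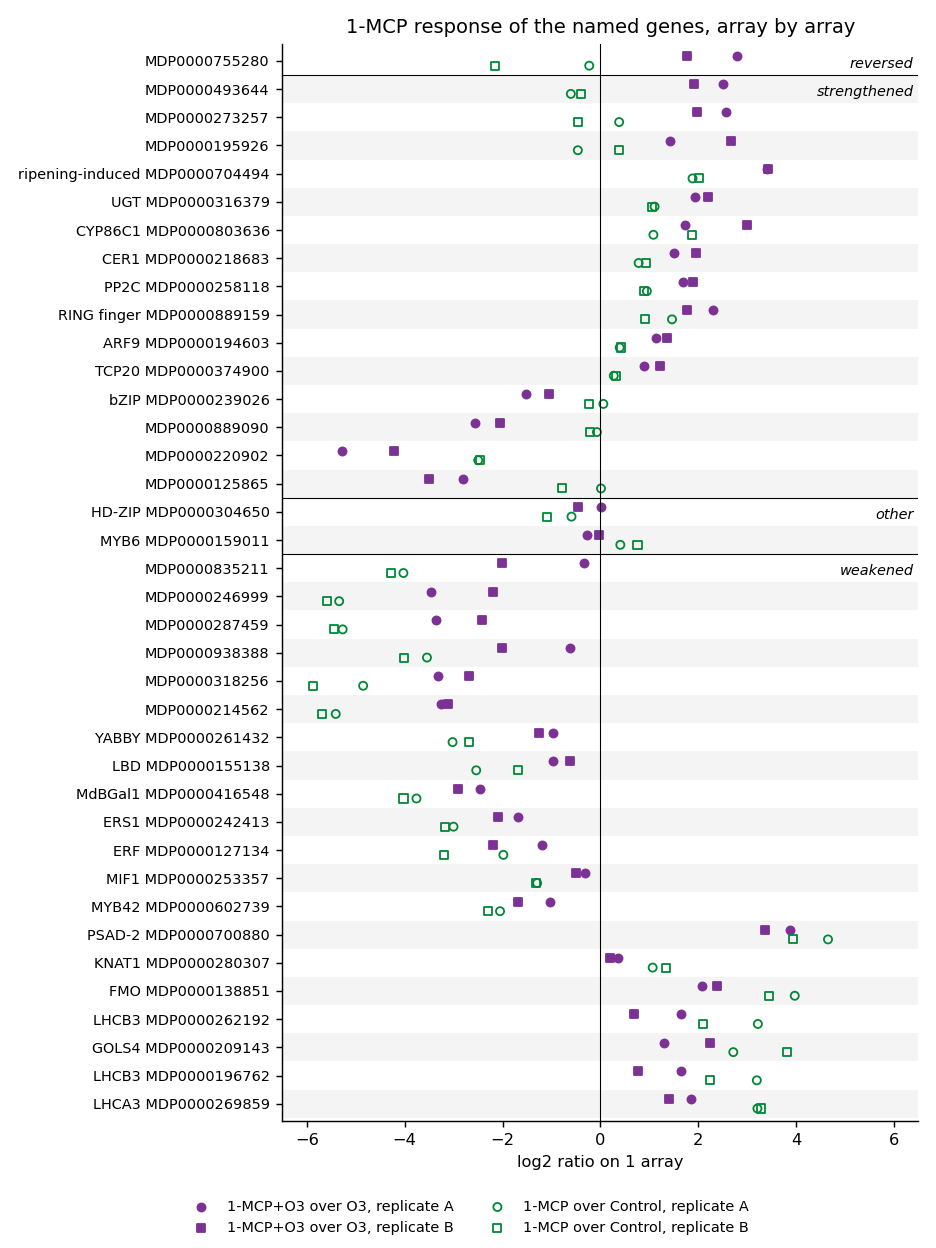
Log2 ratio on each array for the named called genes, 1 row per gene: filled purple symbols are 1-MCP+O3 over O3, open green symbols 1-MCP over Control, circles replicate A and squares replicate B; rows are grouped by class. Weakened genes have the purple symbol of a replicate nearer to 0 than the green symbol of the same replicate, and MDP0000755280, in the top row, is the gene with purple and green symbols on opposite sides of 0 at mean ratios above 1 in size.

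Function names were at hand for 1300 of the genes, nearly all of them from the study's table of genes that differed between treatments on these samples. That table was held only in part, and the lines held were mostly of genes raised after 1-MCP, so the ratio in air took part in choosing them. Over the 1465 genes of that table in the fit, the median difference was -0.25, with 124 called lower and 23 higher. Over all genes it was 0.0094. List counts are therefore set beside both.

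Among the photosynthesis and light-harvesting genes more were called lower than in any other keyword list. Their median log2 ratio was 2.04 in ozone and 2.83 in air, so 1-MCP peel held more of these transcripts than its untreated partner in both atmospheres. Of 62 genes, 21 were called lower in ozone and 1 higher, and 53 of the 62 were lower in both replicates and 4 higher in both. Of the 1465 annotated genes, 124 were called lower and 23 higher, and 726 were lower in both replicates and 190 higher in both. Of all 34870 genes, 1.25% were called lower and 1.26% higher, and 8084 were lower in both replicates and 8640 higher in both. The median difference was -0.66 (A -0.47, B -0.82), and it stayed negative under every processing alternative, between -0.82 and -0.43. The count of 21 was less steady: 4 genes were called lower with median centring in place of loess, 5 without the replicate block, and in that fit between 0 (without either array of 1-MCP over Control) and 5 (without 1-MCP+O3 over O3 replicate A). The median O3 over Control ratio of the list was 0.084.

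LHCA1 (MDP0000259706), an antenna protein of photosystem I, was bright in all 8 channels. Its normalised log2 signal was 13.97 and 13.06 in 1-MCP+O3 peel and 9.61 and 9.58 in O3 peel, and 13.92 and 13.38 in 1-MCP peel and 8.71 and 8.80 in Control peel. The 1-MCP-treated groups overlapped, while both O3 samples lay above both Control samples. Its ratio was 15.1-fold in ozone and 29.7-fold in air. The list as a whole did not share this gap between O3 and Control, as its median ratios against Control were 2.19 for 1-MCP+O3, 2.83 for 1-MCP and 0.084 for O3. CP29 (LHCB4, MDP0000240138), a minor antenna protein of photosystem II, averaged 2.14 ± 0.99 in ozone and 3.34 ± 0.74 in air (SD, n = 2 each). PSAD-2 (MDP0000700880), a stromal subunit of photosystem I, averaged 3.61 ± 0.36 in ozone and 4.30 ± 0.50 in air, 12.2-fold and 19.6-fold. The 1 gene called higher (MDP0000320796, annotated to both an O-acetyltransferase and LHB1B2, and named here after its values were seen) had 2.38 and 2.34 in ozone and 1.76 and 1.76 in air.

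Several light-harvesting genes were near background without 1-MCP. LHCA3 (MDP0000269859) had log2 ratios of 1.85 and 1.40 in ozone, against 3.21 and 3.29 in air, with O3 and Control not well above background on either array. It was at least 3.08-fold higher in 1-MCP+O3 than in O3 peel and at least 9.23-fold higher in 1-MCP than in Control peel, with an adjusted p of 0.916 in limma for the difference. LHCB3 belongs to a trimeric photosystem II antenna. The LHCB3 gene MDP0000140041, well above background in 7 of the 8 channels and called lower, had 2.27 and 1.73 in ozone and 3.40 and 2.97 in air. As with LHCA3, bounds apply to the LHCB3 genes MDP0000196762 and MDP0000262192. They were at least 2.32-fold and 2.24-fold higher in ozone and at least 6.43-fold and 6.19-fold higher in air. A difference between 2 lower bounds has no bound of its own. In 10 of the 62 genes O3 and Control were both at that limit, and among the 36 genes well above background in all 8 channels 9 were called lower and 1 higher, with a median difference of -0.54.

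Carbon storage and hormone genes held further weakened rises. Galactinol synthase GOLS4 (MDP0000209143), the enzyme that opens the synthesis of raffinose sugars, had 1.30 and 2.24 in ozone, against 2.72 and 3.82 in air, a difference of -1.50 ± 0.12 (SE). A mannose 6-phosphate reductase (MDP0000251531), of the enzyme family that makes sugar alcohols, averaged 1.48 ± 1.30 in ozone and 2.85 ± 0.89 in air. These were the largest of 5 genes called lower among 35 of the Calvin cycle and carbohydrate metabolism, of which 0 were called higher (10 at an unadjusted p under 0.05 in limma, either direction). Over the 1465 annotated genes, themselves mostly raised in air, 124 were called lower, and over all genes 1.25% were. At an unadjusted p under 0.05 in limma these were 414 of the 1465 and 11.1% of all genes, either direction. Of 12 genes of gibberellin, jasmonate and other hormones, 4 were called lower and 0 higher, with a median difference of -0.73 (A -0.91, B -0.65) and 10 of the 12 lower in both replicates. The 4 were 2 GASA4 genes (MDP0000232908 and MDP0000229958), the allene oxide synthase AOS (MDP0000296565) of jasmonate synthesis, and BAS1 (MDP0000259047), which inactivates brassinosteroids. AOS had 2.50 and 0.97 in ozone and 3.41 and 2.06 in air.

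Further genes called lower in ozone are given here, so their shared direction follows from that choice. Asparagine synthetase ASN1 (MDP0000119630) averaged 0.34 ± 0.68 in ozone and 1.70 ± 0.40 in air. A second ASN1 gene (MDP0000125407) averaged 1.64 ± 0.25 in ozone and 2.95 ± 0.26 in air. A thaumatin gene (MDP0000124752), of a pathogenesis-related protein family, averaged 3.53 ± 0.74 in ozone and 4.78 ± 0.92 in air. Its ratios were 3.01 and 4.06 in ozone and 4.13 and 5.43 in air, lower in ozone in both replicates. A flavin-containing monooxygenase gene (MDP0000138851) averaged 2.23 ± 0.22 in ozone and 3.71 ± 0.37 in air. O3 was not well above background for it, so its rise in ozone was at least 4.65-fold, with an adjusted p of 0.916 for the difference in limma. Among 38 disease and defence genes 7 were called lower and 0 higher, and among 44 cell wall genes 3 and 0, counts that stand beside 124 lower and 23 higher of 1465 for the annotated genes as a whole.

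Cuticle genes were called in both directions. Of 18 genes of lipid transfer, wax and cutin, 5 were called higher in ozone and 3 lower. Of the 1465 annotated genes 23 were called higher and 124 lower, and of all genes 1.26% and 1.25%. The median difference of the list was 0.16 against -0.25 for all annotated genes. All 5 higher calls encode enzymes of wax or of fatty acid oxidation. They were CUT1 (MDP0000392495), which elongates very-long-chain fatty acids for wax, 2 genes for CER1 (MDP0000477496 and MDP0000218683), which acts in wax alkane formation, and CYP86B1 (MDP0000234292) and CYP86C1 (MDP0000803636), of a P450 family that hydroxylates fatty acids. CUT1 had a normalised log2 signal of 14.25 and 14.60 in 1-MCP+O3 peel and 11.75 and 11.67 in O3 peel, and 13.90 and 13.83 in 1-MCP peel and 12.01 and 11.65 in Control peel. The 1-MCP+O3 samples were the highest of the 8 on these levels, which compare channels across slides. On the arrays against Control, CUT1 had log2 ratios of 1.66 and 3.05 for 1-MCP+O3, 1.89 and 2.18 for 1-MCP, and -1.21 and -0.12 for O3. In replicate A the 1-MCP+O3 ratio was thus not the higher one. Its log2 ratio averaged 2.72 ± 0.30 in ozone and 2.04 ± 0.21 in air, 6.57-fold and 4.10-fold. CER1 (MDP0000218683) averaged 1.74 ± 0.32 in ozone and 0.86 ± 0.11 in air. CYP86C1 had 1.73 and 2.99 in ozone and 1.08 and 1.86 in air.

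The 3 called lower were GLTP3 (MDP0000253428), for a glycolipid transfer protein, and 2 beta-ketoacyl-CoA synthase genes (MDP0000217582 and MDP0000158990), of the family to which CUT1 belongs. None of the 5 higher calls was kept with the processed signals, with median centring, without the replicate block or with limma's trend and robust options, although the list median stayed positive under every alternative, between 0.023 and 0.41. Processed signals moved the median difference of all genes to 0.11, so on that scale only the part of the list median above 0.11 sets the list apart.

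**Figure D4:**
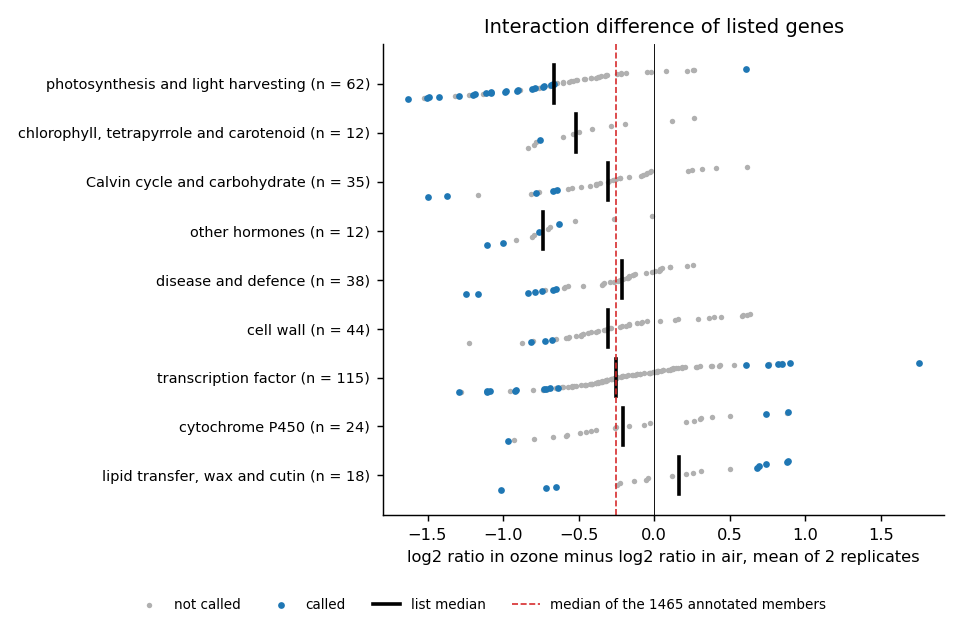
Interaction difference (mean of 2 replicates, log2) of the members of 9 lists, 1 point per gene sorted within its list, with called genes in blue, list medians as black bars and the median of the 1465 annotated genes as a dashed red line. Photosynthesis genes extend furthest below the dashed line in number (21 of 62 called lower), and wax and cutin genes have a median above 0.

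Of the 6 strengthened genes with the largest differences, 3 were lowered by 1-MCP in ozone and 3 were raised. The 3 that were lowered had higher signals in O3 than in Control peel. MDP0000125865 had a normalised log2 signal of 9.46 and 8.87 in 1-MCP+O3 peel and 12.26 and 12.37 in O3 peel, and 8.17 and 6.81 in 1-MCP peel and 8.16 and 7.59 in Control peel. Its log2 ratios were -2.80 and -3.50 in ozone, against 0.01 and -0.78 in air, a difference of -2.77 ± 0.12 (SE, unadjusted p = 4.82e-05 in limma). On the direct arrays its O3 over Control ratio was 4.50 and 4.90, and its 1-MCP+O3 over Control ratio was 1.28 and 1.18.

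MDP0000220902 and MDP0000889090 were also higher in O3 than in Control peel. MDP0000220902, which was lowered in air too, averaged -4.76 ± 0.76 in ozone and -2.48 ± 0.03 in air, with O3 over Control ratios of 3.89 and 3.53. MDP0000889090 averaged -2.31 ± 0.37 in ozone and -0.14 ± 0.10 in air, with O3 over Control ratios of 3.04 and 3.54. Of the 99 genes strengthened downward, 47 were called higher in O3 than in Control and 0 lower, against 2.80% and 1.23% of all genes in that comparison (0.999% and 0.521% of all probes). Their median log2 ratio was 1.20 for O3 over Control and -0.456 for 1-MCP+O3 over Control. The same O3 and Control RNA enters the interaction and the O3 over Control arrays, so these values stand side by side and are not a separate test.

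Strengthened rises were fewer. MDP0000493644 had 2.51 and 1.91 in ozone, against -0.60 and -0.40 in air, a difference of 2.72 ± 0.24 (SE). MDP0000273257 averaged 2.27 ± 0.42 in ozone and -0.04 ± 0.60 in air, and MDP0000195926 averaged 2.04 ± 0.88 and -0.04 ± 0.60. The O3 over Control ratios were -1.49 and -1.26 for MDP0000493644, -1.53 and -1.62 for MDP0000273257, and -0.97 and 0.28 for MDP0000195926. For MDP0000273257 the normalised log2 signal was 9.07 and 9.81 in O3 peel and between 11.23 and 11.78 in every sample of the other groups. Among genes with a name, the ripening-induced protein gene MDP0000704494 had 3.41 and 3.43 in ozone, against 1.88 and 2.02 in air, 10.7-fold and 3.87-fold. A UDP-glucosyltransferase gene (MDP0000316379) averaged 2.07 ± 0.18 and 1.08 ± 0.04, a protein phosphatase 2C gene (MDP0000258118) 1.78 ± 0.14 and 0.92 ± 0.04, and a RING finger gene (MDP0000889159) 2.03 ± 0.37 and 1.18 ± 0.40, each in ozone and in air in that order.

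A reversal at a log2 ratio of 1 in both atmospheres was called for 1 gene, MDP0000755280, which has no function name in the sources. Its normalised log2 signal was 11.33 and 9.19 in 1-MCP+O3 peel and 8.54 and 7.43 in O3 peel, and 9.70 and 7.17 in 1-MCP peel and 9.93 and 9.33 in Control peel. Its log2 ratios were 2.79 and 1.76 in ozone, against -0.23 and -2.16 in air, a difference of 3.47 ± 0.26 (SE, unadjusted p = 0.000379 in limma). The ratio in air varied widely between replicates, and neither ratio was called on its own. With a 1.5-fold ratio in place of a log2 ratio of 1 the class held 12 genes. Opposite signs on all 4 arrays were found for 1017 of the 34870 genes (2.92%) and for 127 of the 876 called.

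The genes that the study set at the end of its scald network had no median direction that held in both replicates. Of 18, among them glutathione S-transferases, polyphenol oxidase, PAD4 and ALD1, 0 were called in limma and 5 had an unadjusted p under 0.05. Of all genes 2.51% were called and 11.1% had an unadjusted p under 0.05, so 0 calls among 18 sets the list little apart. Their median log2 ratio was -1.07 in ozone and -0.65 in air, and the median difference was -0.88 in replicate A and 0.23 in replicate B. Polyphenol oxidase (MDP0000699845), which browns tissue by oxidising phenolics, had -3.73 and -2.50 in ozone and -3.21 and -5.78 in air. PAD4 (MDP0000770174), a regulator of salicylic acid defence in Arabidopsis, had -1.41 and -0.49 in ozone and 0.61 and -1.78 in air. Of the 5 reference genes of the study 0 were called and 0 had an unadjusted p under 0.05 in limma, with differences between -0.36 and 0.16. GAPDH (MDP0000645828) had a difference of 0.11 ± 0.96 (SD, n = 2), with ratios of 1.69 and -1.52 in ozone and 0.90 and -0.94 in air.

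To see the response in genes not chosen by the ratios being read, genes were picked in one replicate and both ratios were read in the other. The choice was a mean of the ratios in ozone and air of at least 1 in size. The letter is also the dye orientation, and deviations of same-lettered arrays correlated with r = 0.688. A dye bias or a trait of a letter's samples thus takes part in the choice, and the reading has the dyes turned. For 1505 genes raised in B, the median log2 ratio in A was 0.885 in ozone and 1.02 in air, and for 2772 genes lowered in B it was -0.355 and -0.470. For 1707 genes lowered in A, the median in B was -1.19 in ozone and -1.32 in air. For 3085 genes raised in A, it was -0.352 in ozone and 0.140 in air, so these genes did not keep their rise in B. The median difference was negative for raised genes (-0.16 for those chosen in B, -0.34 for those chosen in A) and positive for lowered genes (0.19 and 0.25). In the 3 readings that kept the direction of the choice in both atmospheres, the median response was the smaller one in ozone. These 3 are set apart by their outcome, so this is a description. The sign of the median difference turned with median centring in place of loess for genes raised in B (0.13) and lowered in A (-0.039), with processed signals for genes raised in B (0.11), and with the indirect ozone ratio for genes lowered in B (-0.26). These medians have no test.

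**Figure D5:**
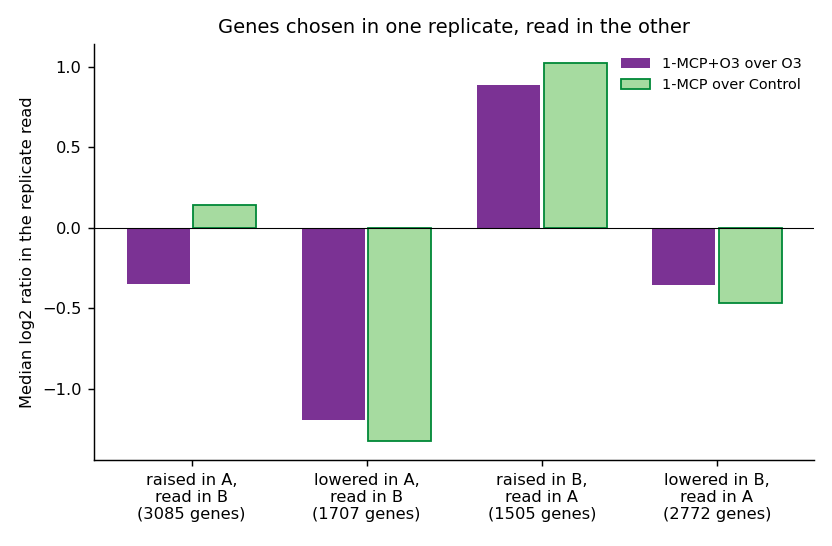
Median log2 ratio of 1-MCP+O3 over O3 (purple) and of 1-MCP over Control (green) in 1 replicate for genes chosen in the other by the mean of both ratios; bars start at 0 and the number of genes stands below each pair. In 3 of the 4 pairs the 2 bars have the same sign, with the purple bar the shorter, and for genes raised in A the purple bar is at -0.352 and the green bar at 0.140.

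Genes with names that go with the labelled tissue were read for signal, as a description. Their names come from the study's table of genes that differed on these samples. Signal in them was thus largely set by that choice, and does not test the tissue. In 10 of the 62 photosynthesis genes in the fit, O3 and Control were both not well above background. All 18 lipid transfer, wax and cutin genes were well above background in at least 1 channel of every array, 15 of them in all 8 channels, and so were 62 of 63 photosynthesis genes, 36 of them in all 8. The 3 genes with vascular names (sieve element, laccase and xylem peptidase) were well above background in all 8 channels too. Of these 3, 0 were called in limma, against 2.51% of all genes. At an unadjusted p under 0.05 the sieve element gene MDP0000204731 passed, with 0.49 and 0.37 in ozone and 1.13 and 0.75 in air. Fewer cells of a kind and less RNA per cell cannot be told apart in peel RNA. Over the arrays, 48.4% to 54.7% of spots in Cy3 and 36.1% to 43.6% in Cy5 were well above background, and dim ratios were drawn toward 0 by the offset of the background correction.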

How the data were processed

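Peel RNA (200 ng per sample) was amplified, labelled with Cy3 or Cy5 and hybridised pairwise on Agilent apple arrays of 180880 spots. The deposited values used here are spot intensity readings per channel, which the authors extracted with Agilent Feature Extraction 11.5.1.1 and did not normalise, together with the processed intensity of the same software and its spot flags. A further 19 columns of values per file were not used. The submitters' processing notes name limma. Which arrays were labelled in which dye was taken from the labels.

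Median intensities were corrected with normexp (offset 50), control spots and outlier spots were left out, each array was normalised by loess, and spots of a probe were averaged (R 4.3.3, limma 3.58.1). This gave 133709 probes, 59208 of them sense, taken from the suffix of the probe name. Mean spot intensities were not used. Ratios were turned so that the first-named group is on top. Normalised log2 signals of single channels, used for description and for lower bounds, were taken after quantile normalisation of the average intensity between arrays (Aquantile). The difference was fitted over all probes with limma (lmFit, eBayes, two-sided) and called at an unadjusted p under 0.01, the threshold of the methods, with Benjamini-Hochberg values beside it. With 2 differences the fit had 1 residual and 2.57 prior degrees of freedom. The replicate letter, which is also the dye orientation, was a block in this fit: the deviations of same-lettered arrays from the mean of their comparison correlated with r = 0.688 across genes. The calculation was tested on simulated data with known differences.

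Genes are given by their MDP identifiers. None matched the RefSeq gene names used here (0 identifiers), so names come from the text and supplementary list of the study, of which 1483 lines were read, and its values were not used. Probe sequences were not analysed here. The members and lists were chosen with earlier results of these data known. Genes were named by rule: among called genes with 1 sign in both replicates, the 6 with the largest mean difference in each class and up to 6 more with a function name, every called gene of the lists fixed by identifier, and the reference genes. Photosynthesis, wax, carbohydrate and hormone genes are further named as called members of their lists. The ASN1 and thaumatin genes are called genes outside this rule. Alternatives changed the background correction, the normalisation, the filters, the arrays and the block in the fit, the moderation, the threshold and the replicates. The number of arrays limits the precision.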

Additional observations from a re-analysis of the deposited data

Results flagged for a closer look

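For 3 called genes with values in the text, the ratio in ozone and the ratio in air had opposite signs on all 4 arrays. The difference was 2.72 for MDP0000493644, 3.47 for MDP0000755280 and -0.73 for MYB6 (MDP0000159011), on the log2 scale and as 1-MCP response in ozone minus 1-MCP response in air. Each passed an unadjusted p under 0.01 in limma, and each had an adjusted p of 0.916 over all probes.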

How the results depend on the processing

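The count of 876 called genes was 309 with median centring in place of loess, 308 with only the described genes in the fit, 1395 with all 8 arrays and a dye term, 534 with the indirect ozone ratio (1-MCP+O3 over Control minus O3 over Control) and 308 unmoderated. It was 3877 and 65 at an unadjusted p under 0.05 and 0.001, and 0 at an adjusted p under 0.05 in limma. Without the replicate block 241 genes were called (0.691%), 221 of them among the 876. Leaving out 1 array at a time, in the fit without the block, gave 90 to 479 genes, the lowest without 1-MCP over Control replicate A and the highest without 1-MCP+O3 over O3 replicate B. Of the 876 genes, 228 were called with processed signals (742 called), 411 with limma's trend and robust options (799 called) and 143 with median centring. The share called higher was 50.3%, against 56.5% with processed signals, 38.7% with trend and robust options and 42.7% with the indirect ratio. Trend and robust options also brought 37 genes under an adjusted p of 0.05, 16 of them lower and 4 of them photosynthesis genes, all 37 among the 876.

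The 365 weakened genes became 130 with median centring, 171 with only the described genes in the fit, 98 without the replicate block and 158 with the indirect ratio. The 141 strengthened genes became 289 with processed signals, 75 with only the described genes in the fit, 48 without the replicate block, 237 where a response began at 1.5-fold, and 80 where it began at a log2 ratio of 1.5. The 1 reversed gene became 9 with processed signals, 0 without the replicate block, and 12 and 0 at those sizes.

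Counts of list members under the alternatives were added after seeing the data. The 21 photosynthesis genes called lower became 10 with processed signals, 4 with median centring, 11 with only the described genes in the fit, 9 with both channels required above background, 5 without the replicate block, 5 with the indirect ratio, 1 unmoderated, 36 at an unadjusted p under 0.05, 4 at 0.001 and 0 at an adjusted p under 0.05, and 0 to 5 with 1 array left out, with 0 without either array of 1-MCP over Control. The 5 wax and cutin genes called higher became 3 without background correction, 2 with scaling between arrays, and 1 each with all 8 arrays and with the indirect ratio. They became 0 with processed signals, with median centring, with only the described genes in the fit, without the replicate block, unmoderated, with trend and robust options, at an unadjusted p under 0.001, at an adjusted p under 0.05 and without any 1 array (0 to 0).

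For genes chosen in one replicate and read in the other, the median difference of genes raised in A (-0.34) was -0.0010 with the indirect ratio and -0.66 with a choice at a log2 ratio of 2. That of genes lowered in A (0.25) was -0.039 with median centring, 0.12 with the indirect ratio and 0.54 with a choice at 2. That of genes raised in B (-0.16) was 0.11 with processed signals, 0.13 with median centring and -0.33 with a choice at 2. That of genes lowered in B (0.19) was 0.48 with processed signals, 0.68 with median centring, -0.26 with the indirect ratio and 0.14 with a choice at 2. Another fit does not enter these medians, so the genes in the fit, the block and the 8-array model give no further value.

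Among the called genes named by rule, 17 missed the threshold without the replicate block, 19 with processed signals, 16 with median centring, 19 with the indirect ratio, 37 unmoderated, 27 at an unadjusted p under 0.001 and 24 to 31 with 1 array left out, and none of these changed sign under those settings. With the other alternatives of processing and fit 0 to 14 missed it, and at an adjusted p under 0.05 in limma 38 did. The sign of 1 reference gene, MDP0000251161, turned with the indirect ratio (0.039). With 1 array left out, GAPDH (MDP0000645828) reached -1.49 and -0.81 (range -1.49 to 1.71), MDP0000146514 0.23 (range -0.95 to 0.23), MDP0000217860 -0.019 and MDP0000271281 -0.33 and -0.41 (range -0.41 to 0.74), and GAPDH was -0.57 in replicate B alone. All of these are reference genes of the study, which were not called. The cause of these changes was not tested. Limits lie in 2 samples per group, in 1 residual degree of freedom, in slide and ozone being inseparable, and in dim channels, where a ratio is only a bound.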
